A study of Mus musculus with 6 samples.

Results

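The 38 Hox genes described here are those whose symbols are listed for the Hoxa, Hoxb, Hoxc and Hoxd clusters of the mouse. All 38 symbols matched a protein-coding gene of the RefSeq annotation of GRCm38.p6, out of 21887 protein-coding genes on the nuclear chromosomes. The Hoxa and Hoxb clusters hold 10 of these genes each, and the Hoxc and Hoxd clusters hold 9 each. The cells were B16, a mouse melanoma line, labelled wild type, grown in standard medium with serum, and the labels name no treatment. They were profiled by CUT&Tag, in which an antibody directs a transposase to chromatin in permeabilised cells and the cut fragments are sequenced. One peak list came from an antibody to H3K4me3, trimethylated lysine 4 of histone H3, and another from an antibody to the acetyltransferase p300, with 1 library for each antibody. A further 4 libraries, for H3K9me3 in wild-type, TdgKO, Trp53KO and TdgTrp53DKO cells, were not analysed here, so the Hox genes were described in wild-type cells alone.

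Hox genes encode homeodomain transcription factors that give cells their position along the body axis. In each cluster the genes lie in the order of their paralogue numbers, and genes with low numbers act towards the head while those with high numbers act towards the tail and in the limbs. Trithorax complexes that contain an H3K4 methyltransferase and Polycomb complexes keep the active and the silent state of the clusters. H3K4me3 marks promoters that are active or poised, and p300 acetylates histones at active enhancers and promoters. Melanocytes descend from the neural crest, whose cells carry Hox patterns according to the level of the body at which they arose.

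On the nuclear chromosomes there were 27019 H3K4me3 peaks and 6512 p300 peaks. Fold enrichment and −log10 q of a peak are the authors' values, and folds are compared only within a list. The number of reads at each summit was recovered from the deposited fold and −log10 p (the median H3K4me3 summit had 80.0 reads and the median p300 summit 39). The weakest listed summits had 15 reads for H3K4me3 and 14 for p300. A gene without a peak therefore had none detectable at this depth, and a peak does not show in what share of the cells the mark was present. The labelled cell type was checked by H3K4me3 within 1 kb of a gene end. It was found at 6 of 7 melanocyte lineage genes and at 0 of 8 epithelial, lymphocyte and hepatocyte genes. Over all protein-coding genes the share was 50.5% at an end and 58.9% with the inside of the gene counted. Counted inside the gene as well, H3K4me3 was present at all 7 melanocyte genes, Mlana included, and at 1 of the 8 others. That gene was the epithelial marker Cdh1, with H3K4me3 of fold 8.81 and p300 of fold 8.27 inside it. With 1 library for each antibody there was no replicate, so no difference below has a test.

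H3K4me3 was found at fewer Hox genes than at protein-coding genes at large. A peak came within 1 kb of an annotated end of 12 of the 38 Hox genes (31.6%), against 50.5% of all protein-coding genes. Counted anywhere in the gene or within 1 kb of it, H3K4me3 was present at 13 Hox genes (34.2%), against 58.9% of all. The other 25 had no H3K4me3 peak at that distance. Most of them were within 50 kb of one, because 36 of the 38 had a peak that near an end, against 75.2% of all genes. Neighbouring genes can share a peak at this distance, so the 36 are not independent. In Hoxc, 7 of 9 genes counted through a single peak. The clusters differed, with H3K4me3 at an end of 4 of 10 Hoxa genes, 5 of 10 Hoxb genes, 1 of 9 Hoxc genes and 2 of 9 Hoxd genes. The share of Hox genes depended on the strength and distance required. It was 13.2% against 34.4% of all genes in the upper part of the list by fold, and 42.1% against 53.5% with a window of 2 kb.

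**Figure D1:**
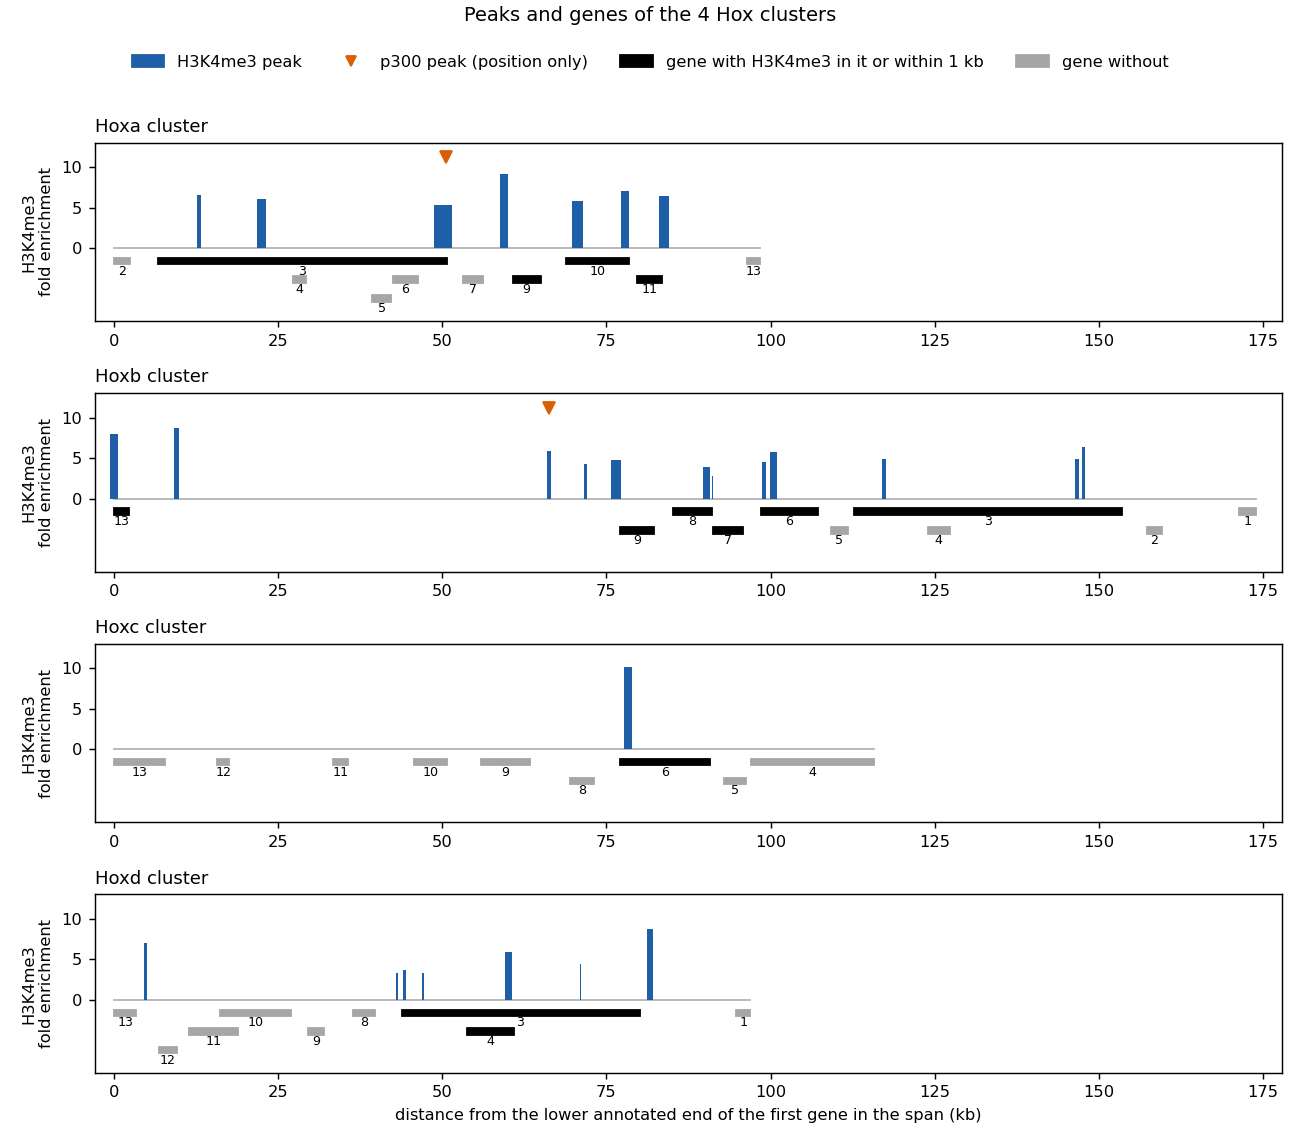
Each panel plots 1 Hox cluster by distance in kb from the lower annotated end of its first gene, with H3K4me3 peaks as bars whose width is to scale and whose height is the fold enrichment, p300 peaks as triangles that mark position alone, and genes as boxes with their paralogue numbers below. The 7 Hoxa peaks are spread from Hoxa3 to Hoxa11, Hoxc has 1 peak at Hoxc6, and the left part of Hoxd holds 1 peak.

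The spans of the 4 clusters, each from the lowest to the highest coordinate of its genes, measured 485 kb together and held 27 H3K4me3 peaks. There were 7 in Hoxa (98.5 kb), 12 in Hoxb (174 kb), 1 in Hoxc (116 kb) and 7 in Hoxd (96.9 kb). Per 100 kb this came to 7.11, 6.90, 0.864 and 7.22 peaks in that order, against 0.993 over the genome up to the last feature of each chromosome. The Hoxc span thus had a peak density near that of the genome, and the other 3 spans were several times as dense. Density by length does not allow for the number of genes, and the spans held the 38 Hox genes in 485 kb. The genome held 21887 protein-coding genes in 2722 Mb. Peaks covered 10.4% of the Hoxa span, 4.88% of Hoxb, 1.05% of Hoxc and 3.86% of Hoxd, against 0.854% of the genome. In the upper part of the list by fold the coverage was 4.47% of Hoxa, 1.02% of Hoxb, 1.05% of Hoxc and 1.52% of Hoxd, against 0.476% of the genome.

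The Hoxa cluster (chromosome 6, 52162417 to 52260880) held the widest H3K4me3 peak and had the largest covered share of the 4 clusters. Its 7 peaks ranged from 546 to 2824 bp with a median of 1276 bp, against a median of 757 bp in the whole list, and their median summit had 127 reads. The widest began at 52211104 and ended at 52213927, over the annotated start of Hoxa3, a gene of pharyngeal arch, thymus and parathyroid development. It was wider than 99.7% of the listed H3K4me3 peaks. Its fold was 5.32, below the list's median of 6.24, with 252 reads at the summit over an estimated background of 46.5 reads. The summit lay inside the gene, more than 1 kb from the start. The annotated Hoxa3 of 44009 bp also contains Hoxa4, Hoxa5 and Hoxa6. A further 2 peaks lay inside Hoxa3, at 52175075 to 52175620 with fold 6.54 and at 52184220 to 52185472 with fold 6.01.

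The upper Hoxa genes had H3K4me3 at several ends. The Hoxa cluster is transcribed from the minus strand, so the higher coordinate of a gene is its start. Hoxa9, a gene of blood cell and trunk development often raised in leukaemia, had the strongest peak of the cluster, with fold 9.18 and 257 reads at 52221146 to 52222421. That peak lay 676 bp beyond the 3′ end of Hoxa9, between Hoxa9 and Hoxa7, and no peak came within 1 kb of the Hoxa9 start. Hoxa10, which acts in the uterus and the lumbar spine, had a peak near each end. The one at its start had fold 6.99 and 191 reads and stopped 34 bp short of the annotated start, inside the gene. The one at its 3′ end had fold 5.75 and 102 reads. Hoxa11, a gene of forearm and uterus development, had a peak of fold 6.46 and 127 reads across its start. Its 1450 bp also reached into the antisense gene Hoxa11os, and reads at an overlapping antisense pair cannot be assigned to either gene.

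Hoxa2, Hoxa4, Hoxa5, Hoxa6, Hoxa7 and Hoxa13 had no H3K4me3 peak in the gene or within 1 kb. Hoxa4, Hoxa5 and Hoxa6 lay together in a stretch of 25.6 kb without a peak, from 52185473 to 52211103. Hoxa13, a gene of digit and genital development, was 11938 bp from the nearest peak, and Hoxa2, which patterns the hindbrain and the second pharyngeal arch, was 1144 bp from one. The promoters of Hoxa3 and Hoxa11 are printed below because an H3K4me3 peak covered them, and those of Hoxa2 and Hoxa5 because none was in the gene or within 1 kb. Each is the 250 bases before the annotated start on the minus strand, from RefSeq, build GRCm38.p6, written 5′ to 3′ with CG dinucleotides in capitals.
Hoxa3, chr6:52213068-52213317: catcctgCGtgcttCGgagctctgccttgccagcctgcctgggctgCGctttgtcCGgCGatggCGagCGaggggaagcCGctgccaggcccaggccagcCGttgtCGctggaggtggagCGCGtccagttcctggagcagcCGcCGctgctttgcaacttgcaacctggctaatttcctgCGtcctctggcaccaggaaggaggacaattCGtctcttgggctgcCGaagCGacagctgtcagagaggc
Hoxa11, chr6:52245811-52246060: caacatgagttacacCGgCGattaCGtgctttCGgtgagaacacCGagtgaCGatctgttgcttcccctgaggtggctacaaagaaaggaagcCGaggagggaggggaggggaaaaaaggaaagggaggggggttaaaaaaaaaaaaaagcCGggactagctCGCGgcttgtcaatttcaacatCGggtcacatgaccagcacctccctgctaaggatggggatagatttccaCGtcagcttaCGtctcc
Hoxa2, chr6:52164832-52165081: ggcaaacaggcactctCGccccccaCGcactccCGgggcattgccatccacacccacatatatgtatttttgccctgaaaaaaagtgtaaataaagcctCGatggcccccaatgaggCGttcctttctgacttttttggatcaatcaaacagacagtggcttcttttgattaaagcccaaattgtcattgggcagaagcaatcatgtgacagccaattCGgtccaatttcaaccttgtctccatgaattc
Hoxa5, chr6:52204588-52204837: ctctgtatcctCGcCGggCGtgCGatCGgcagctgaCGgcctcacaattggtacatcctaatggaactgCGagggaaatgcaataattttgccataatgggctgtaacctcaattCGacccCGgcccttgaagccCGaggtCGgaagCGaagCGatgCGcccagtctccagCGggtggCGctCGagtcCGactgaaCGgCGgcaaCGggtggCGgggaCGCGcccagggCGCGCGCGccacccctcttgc
Hoxa3 has 18 CG dinucleotides in this window and Hoxa11 has 13. Hoxa2 has 6, and Hoxa5 has 28, the highest number of these 4 promoters, with no H3K4me3 peak within 6517 bp.

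The Hoxb cluster (chromosome 11, 96194316 to 96368254) held 12 peaks that were narrower and weaker than those of Hoxa. Their median fold was 4.91 and their median summit 67 reads. Genes with neighbouring numbers from Hoxb6 to Hoxb9 all had H3K4me3 at an end. These genes act in the trunk, in the patterning of vertebrae, ribs and spinal cord. Hoxb9 had a peak of 1469 bp and fold 4.75 across its start, with 109 reads at the summit. Hoxb8 and Hoxb7 shared 2 peaks, which lay between the last part of Hoxb8 and the first base of Hoxb7. The stronger of the shared peaks had fold 3.91 and 61 reads, and the weaker had fold 2.85 and 45 reads, lower in fold than all but 2.82% of the list. Hoxb6 had a peak of fold 4.47 and 137 reads near its start, and a stronger one inside the gene, with fold 5.71 and 172 reads.

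Hoxb13 had the highest fold at an end among the Hoxb genes, though not the most reads. It lies at the lower end of the cluster, far from Hoxb9, and acts in the prostate and the tail. A peak of 1210 bp covered its start, with fold 8.0 and 85 reads over a background of 9.75 reads. Between Hoxb13 and Hoxb9 lay a peak of fold 8.69 at the ends of the lncRNA genes Gm30134 and Gm11538, followed by 56.2 kb without H3K4me3. At the other end of the cluster, Hoxb3 had no peak at an end but 3 inside its annotated 40830 bp, with folds of 4.92, 4.91 and 6.32 and 23, 34 and 43 reads. Hoxb1, a gene of hindbrain segment identity, and Hoxb2, Hoxb4 and Hoxb5 had none in the gene or within 1 kb. Hoxb1 was the farthest from a peak, at 23562 bp.

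The Hoxc cluster (chromosome 15, 102921131 to 103036856) had a single H3K4me3 peak. It ran from 102998744 to 102999954 inside Hoxc6, a gene of thoracic patterning, and began 518 bp after its annotated start. With fold 10.2 it was the strongest peak of the 4 clusters by that measure, above 92.7% of the H3K4me3 list. Its summit had 152 reads. Below it, 77.6 kb without a peak contained Hoxc8, Hoxc9, Hoxc10, Hoxc11, Hoxc12 and Hoxc13. Above it, 36.9 kb without a peak contained Hoxc5 and Hoxc4. Hoxc13, which is needed for hair and nails, was the farthest of all 38 genes from an H3K4me3 peak, at 69930 bp.

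The Hoxd cluster (chromosome 2, 74668225 to 74765142) had 7 peaks, and 4 of them were 350 bp wide or narrower. Hoxd3, which shapes the first vertebrae, had a peak on each side of its start, with folds of 3.26 and 3.66 and with 61 and 72 reads. The 250 bases before the Hoxd3 start fell between these and were not covered. Peaks of fold 3.30 and 4.47, with 70 and 19 reads, lay farther inside the gene. Hoxd4, a gene of the hindbrain and neck, had a peak of 1010 bp and fold 5.89 near its 3′ end, with 61 reads. The Hoxd peak with the highest fold, 8.78 with 74 reads, was at an end of the lncRNA gene Haglr, 1120 bp beyond the 3′ end of Hoxd3. Hoxd8, Hoxd9, Hoxd10, Hoxd11 and Hoxd12, which act in the limbs and the lower spine, lay in 37.9 kb without a peak. Hoxd13, a digit gene, had none within 1 kb, and a peak of fold 7.05 and 110 reads lay 1075 bp beyond its 3′ end. Hoxd1 was 12632 bp from the nearest peak.

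The window of 1 kb decided the count for a few genes. Just inside it were Hoxc6 at 518 bp, Hoxa9 at 676 bp and the second, weaker peak of Hoxa10 at 894 bp. Just outside it were Hoxd13 at 1075 bp, Hoxa2 at 1144 bp, Hoxa7 at 1696 bp and Hoxd12 at 1822 bp. With a window of 500 bp, 10 Hox genes had H3K4me3 at an end (26.3%), against 47.5% of all genes.

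Marked and unmarked genes lay in runs, and the runs differed between clusters. Hoxa9 to Hoxa11 and Hoxb6 to Hoxb9 were marked at an end throughout, while Hoxa4 to Hoxa7, Hoxc8 to Hoxc13 and Hoxd8 to Hoxd13 were unmarked throughout. In these runs Hoxa9 and Hoxb8 had H3K4me3 within 1 kb of the 3′ end and not of the start. Hoxb7 and Hoxb8 counted through the same 2 peaks. The unmarked runs depended on the window, because Hoxa7, Hoxd12 and Hoxd13 had a peak at an end with a window of 2 kb. Over the 4 clusters together these runs gave similar shares by paralogue number. H3K4me3 was at an end of 2 of 7 genes with numbers 1 to 3, 5 of 15 with numbers 4 to 8 and 5 of 16 with numbers 9 to 13. Those shares were 28.6%, 33.3% and 31.2%. Within clusters they differed, with numbers 9 to 13 marked in 3 of 4 Hoxa genes and 2 of 2 Hoxb genes, but in 0 of 5 Hoxc genes and 0 of 5 Hoxd genes. Numbers 4 to 8 were marked in 0 of 4 Hoxa genes, 3 of 5 Hoxb genes, 1 of 4 Hoxc genes and 1 of 2 Hoxd genes. No paralogue group had the mark at an end in all of its listed members. Groups 3 and 6 came nearest with 2 of 3 genes each, and group 9 had it at Hoxa9 and Hoxb9 of 4 genes. It was at 0 of 2 genes of group 1, 0 of 2 of group 2, 0 of 3 of group 5 and 0 of 2 of group 12. In group 13 it was at Hoxb13 and not at Hoxa13, Hoxc13 or Hoxd13. In the upper part of the list by fold, 0 genes with numbers 1 to 3, 1 with numbers 4 to 8 and 4 with numbers 9 to 13 had a peak at an end. Those 5 were Hoxa9, Hoxa10, Hoxa11, Hoxb13 and Hoxc6.

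**Figure D2:**
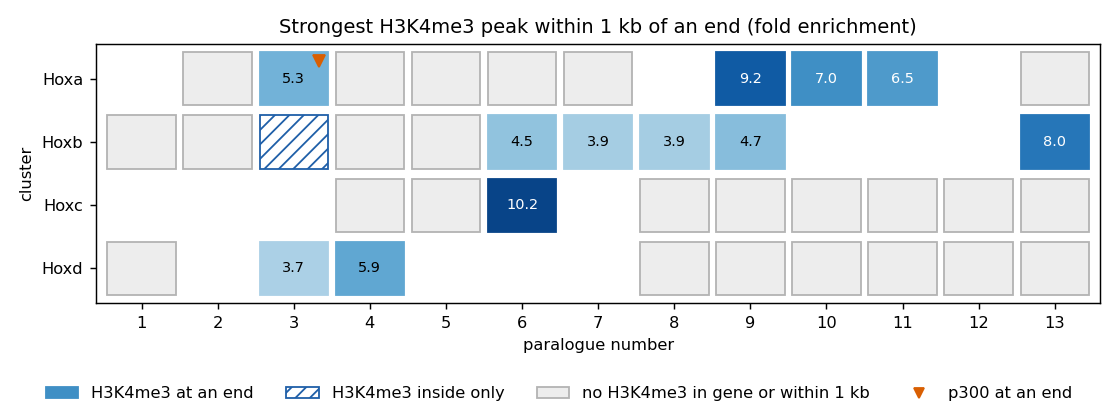
The 38 Hox genes are placed by cluster (vertical) and paralogue number (horizontal), and the colour and the number give the fold enrichment of the strongest H3K4me3 peak within 1 kb of an end. Hoxb3 alone has H3K4me3 inside the gene and not at an end, and p300 at an end is seen at Hoxa3 alone.

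Most marked Hox genes had the peak at the start. All listed starts within a cluster were on the same strand, and that strand was applied to each gene of the cluster, a step chosen after the data were seen. A peak then came within 1 kb of the start of 9 of the 38 Hox genes, against 49.5% of the 17492 protein-coding genes with a listed strand. Within 1 kb of the 3′ end it was found at 4 Hox genes, Hoxa9, Hoxa10, Hoxb8 and Hoxd4, against 6.12% of all. Hoxa10 had both. At Hoxb8 the peaks were also at the start of Hoxb7.

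The peaks of marked Hox genes had lower folds than those of other marked genes, with nearly as many reads. Taking the strongest peak at an end of each gene, the 12 Hox genes had a median fold of 5.60, against 7.28 for the 11045 protein-coding genes with H3K4me3 at an end. The median summit had 118 reads at the Hox genes and 132 at all marked genes. The median background was 18.9 reads at the Hox genes and 16.7 at all marked genes, and the median width 1170 bp at the Hox genes and 1109 bp at all. Within the 12, Hoxc6 and Hoxa9 had higher folds than 87.8% and 78.0% of marked genes, and Hoxb13 than 62.0%. Hoxd3, Hoxb7 and Hoxb8 were at the low end, above 2.89%, 4.19% and 4.19%. By reads the order was another one, with Hoxa9 above 96.3%, Hoxa3 above 95.6% and Hoxa10 above 81.4% of marked genes. In fold Hoxa3 was above 17.6%, and in width above 99.6%.

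**Figure D3:**
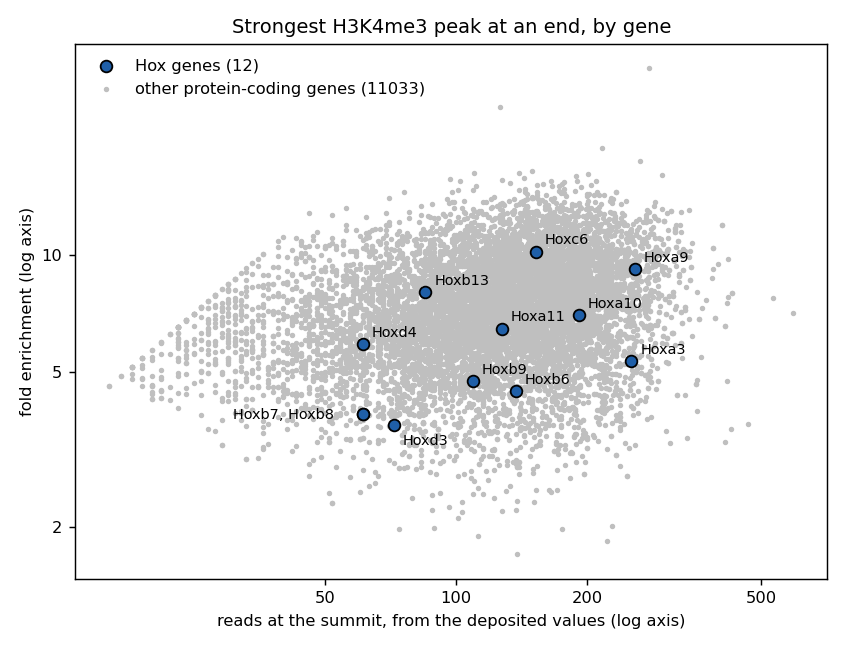
For each protein-coding gene with H3K4me3 at an end, the strongest such peak is plotted by reads at its summit (horizontal, log axis) and fold enrichment (vertical, log axis), with the 12 Hox genes as named large points. Hoxa3 and Hoxa9 have similar reads, 252 and 257, at folds of 5.32 and 9.18.

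p300 was found at a smaller share of Hox genes than of protein-coding genes at large. A p300 peak came within 1 kb of an end of 1 of the 38 genes (2.63%), against 13.5% of all protein-coding genes, and no further Hox gene had one inside, against 20.0% of all. That gene was Hoxa3. Its p300 peak, from 52212625 to 52213282, lay across the start and inside the wide H3K4me3 peak. It had fold 4.32 and 31 reads at the summit, a fold above 13.5% of the p300 list. The only other p300 peak in the 4 spans lay in Hoxb from 96260111 to 96260970, inside the lncRNA gene Gm53 and 10360 bp below Hoxb9. That peak had fold 5.52 and 55 reads, and it overlapped an H3K4me3 peak of 556 bp, fold 5.83 and 73 reads. Both p300 peaks thus overlapped H3K4me3, as 85.5% of all p300 peaks did. In the other direction, 2 of the 27 H3K4me3 peaks of the spans overlapped p300, against 21.2% of the whole list. Neither p300 peak was in the upper part of its list by fold. By length the spans were not poor in p300, because these 2 peaks covered 0.313% of them, against 0.175% of the genome.

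Distance to p300 separated the clusters. A p300 peak lay within 50 kb of an end of 17 of the 38 genes (44.7%), against 43.6% of all genes, so the share over all members was near that of the genome. By cluster it was 10 of 10 Hoxa genes, 7 of 10 Hoxb genes, 0 of 9 Hoxc genes and 0 of 9 Hoxd genes. Genes of a cluster share the same p300 peaks, so these counts are not independent. The median distance from the gene to the nearest p300 peak was 8.93 kb in Hoxa, 44.1 kb in Hoxb, 255 kb in Hoxc and 119 kb in Hoxd, against 71.1 kb for all protein-coding genes. Hoxc12 was the farthest, at 301 kb. In the upper part of the p300 list by fold, 1 Hox gene had a peak within 50 kb.

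**Figure D4:**
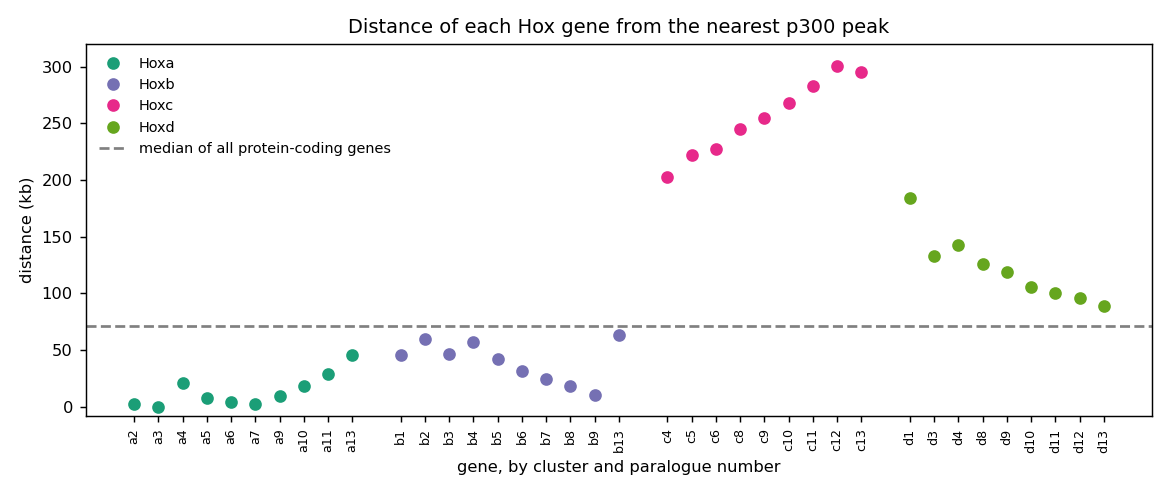
The distance in kb from each of the 38 Hox genes to the nearest p300 peak is plotted by cluster and paralogue number, with the median of all protein-coding genes as a dashed line. All Hoxa and Hoxb genes lie below the line at 71.1 kb, and all Hoxc and Hoxd genes lie above it, between 89.3 and 301 kb.

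The Hox promoters listed by RefSeq had a higher median CG count than all promoters, at genes with and without H3K4me3. The table held 24 promoters of 22 of the 38 genes, which were 9 Hoxa, 3 Hoxb, 1 Hoxc and 9 Hoxd genes. Hoxb7, Hoxb9 and Hoxb13, each with an H3K4me3 peak over the annotated start, were not in it. The counts below therefore describe the listed promoters and not all Hox promoters. Their 250 bases before the start had a median of 12.5 CG dinucleotides, more than in 68.5% of the 32851 promoters in the table. The count ranged from 2 to 35 among the Hox promoters. The median was 6 over all promoters and 16 over all promoters with H3K4me3 over the window. It was 12 in the 8 Hox promoters of genes with H3K4me3 at an end. In the 16 of genes with none inside or within 1 kb it was 13.5. An H3K4me3 peak covered part of this window in 2 of the 24 Hox promoters, those of Hoxa3 and Hoxa11, against 33.6% of all promoters. p300 covered part of it at Hoxa3 alone, against 8.16% of all. Among promoters with at least the median CG count of the Hox promoters, 2 of 12 Hox promoters had H3K4me3 over the window, against 71.6% of all 10362 such promoters. Of those 12 Hox promoters, 9 belonged to genes where H3K4me3 was found neither inside nor within 1 kb. The promoters of Hoxa13 with 35 CG dinucleotides, Hoxd13 with 31, Hoxa5 with 28, Hoxa6 with 24 and Hoxd1 with 24 were among them.

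Short motifs were searched on both strands of the same 250 bases. CCAAT was present in 14 of the 24 Hox promoters (58.3%), against 33.8% of all promoters, and GGGCGG in 10 (41.7%), against 32.7%. Matches of different motifs may overlap, and each motif was counted on its own. TATAAA was present in 4 (16.7%), against 12.4%, and CACGTG, which reads the same on both strands, in 4 (16.7%), against 6.02%. TGATTNAT, a form of the site that Hox and Pbx proteins bind together, was present in 2 (8.33%), at Hoxa2 and Hoxd11, against 2.82%. Neither of those genes had H3K4me3 inside or within 1 kb. The promoters of a cluster share descent and base composition, so these shares describe the sequences and no more.

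Noncoding genes inside the spans carried H3K4me3 as well. Of 22 lncRNA genes lying within a span, 13 had a peak within 1 kb of an end, against 20.1% of all lncRNA genes. By cluster these were 6 of 9 in Hoxa, 3 of 6 in Hoxb, 1 of 3 in Hoxc and 3 of 4 in Hoxd. The peak of 7 of the 13 was one already counted at a Hox gene end, so these are not separate observations. They were Hoxaas3 and Mira at the Hoxa3 peak, Gm52902 at Hoxa10, LOC115490410 and Hoxa11os at Hoxa11, Gm29905 at Hoxc6 and Gm38462 at Hoxd3. Hotair, a lncRNA of the Hoxc cluster, was 50798 bp from the nearest peak. The clusters also hold 6 microRNA genes of 3 families that silence Hox and other transcripts. Their mature 5p strands are shown because the 2 families with several members fall into different clusters, with the seed, bases 2 to 8, in capitals.
mmu-miR-196a-5p: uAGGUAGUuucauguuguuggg
mmu-miR-196b-5p: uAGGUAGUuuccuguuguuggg
mmu-miR-10a-5p: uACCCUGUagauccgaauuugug
mmu-miR-10b-5p: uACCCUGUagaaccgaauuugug
The sequences are those of RefSeq, build GRCm38.p6. miR-196a and miR-196b share 1 seed, and miR-10a and miR-10b share another. Of the 6 genes, 1 had H3K4me3 within 1 kb, against 13.5% of all microRNA genes. This was Mir196a-1 of the Hoxb cluster, 672 bp from a peak of fold 4.23 and 84 reads. Mir10b was 1635 bp, Mir196b 1926 bp, Mir10a 5222 bp, Mir615 14956 bp and Mir196a-2 25310 bp from the nearest H3K4me3 peak.

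Of the 16 flanking genes that are not Hox genes, taking the nearest 2 on each side of each cluster, 10 had H3K4me3 at an end (62.5%), against 50.5% of all protein-coding genes. p300 was at an end of 4, against 13.5% of all. With 16 genes these shares are coarse. Next to Hoxa, Skap2, an adaptor of immune cell signalling, had H3K4me3 of fold 10.2, with p300 of fold 6.36. Next to Hoxc, where a single Hox gene was marked, Calcoco1, Atp5g2, Smug1 and Cbx5 all had H3K4me3 at an end, with folds of 9.67, 5.17, 3.71 and 5.64. Cbx5, which encodes a heterochromatin protein that binds H3K9me3, also had p300 of fold 6.04. Next to Hoxd, Lnpk and Mtx2 had H3K4me3 of fold 7.68 and 8.19, and Lnpk had p300 of fold 6.34. Snx10, Hibadh and Snx11 were the other marked neighbours, with folds of 5.37, 7.97 and 10.2, and Hibadh had p300 of fold 5.11. Evx1, Evx2, Ttll6, Calcoco2, Skap1 and Gm50595 had no H3K4me3 at an end.

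Genes for the partners of Hox proteins differed from the Hox genes. The TALE homeodomain proteins bind DNA together with Hox proteins, and all 9 of their genes had H3K4me3 at an end. The fold was 8.29 at Pbx4, 8.02 at Meis3 and 7.68 at Meis1. Among these genes 2 had p300 at an end, Pknox1 with fold 8.50 and Meis2 with fold 4.67. Of 8 ParaHox and Evx genes, the nearest relatives of the Hox genes, 1 had H3K4me3 at an end, Cdx2 with fold 7.86, and 0 had p300. Dlx and Irx genes are homeobox genes that also lie in pairs or clusters. The mark was at an end of 4 of 6 Dlx genes, which act in the jaws and forebrain, with 7.53 at Dlx1, 5.94 at Dlx6, 5.67 at Dlx4 and 5.13 at Dlx2. It was at an end of 2 of 6 Irx genes, Irx3 with fold 7.58 and Irx5 with 6.30, and both had p300 there, with folds of 8.16 and 6.96.

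**Figure D5:**
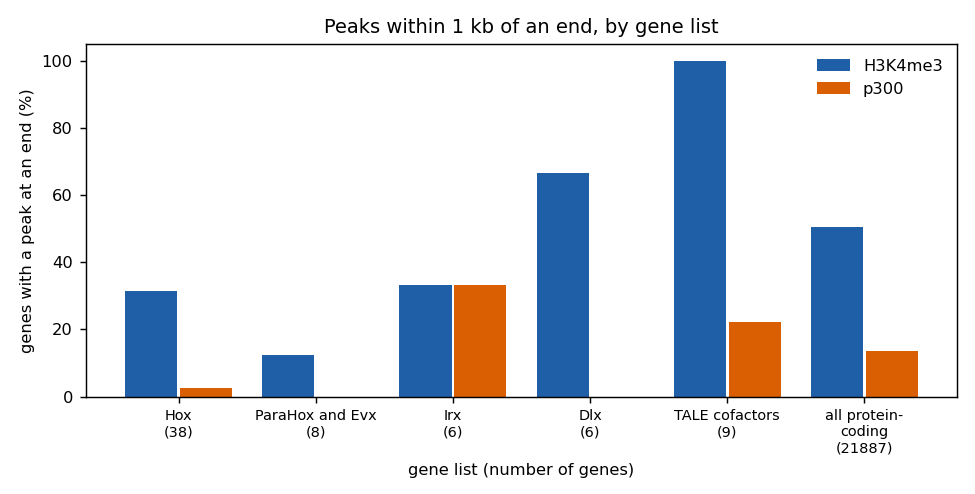
Bars give the percentage of genes with a peak within 1 kb of an end in each list, for H3K4me3 and for p300, with the number of genes in brackets below. The Hox genes stand at 31.6% and 2.63%, all 9 TALE cofactors have H3K4me3 there and 22.2% have p300, and all protein-coding genes at 50.5% and 13.5%.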

How the data were processed

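The values come from wild-type B16 cells, 1 CUT&Tag library each for H3K4me3 and p300, grouped by sample title. The submitters' processing notes name the build mm10, and among the tools Bowtie2 2.2.5, Trim Galore, deepTools and Picard 2.22.4. The sources used here do not name a peak caller or a control, and do not say whether PCR copies were removed.

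The authors deposited, for each peak, a start, end, summit, score, fold enrichment (a ratio over a background), −log10 p and −log10 q. The deposited score follows the −log10 q and was not used. All folds and −log10 q values above are the authors'. Only peaks on the autosomes, X and Y were kept.

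Annotated ends were those that RefSeq lists for GRCm38.p6, which has the coordinates of mm10. A peak counted at a gene end when at least 1 bp of it was within 1 kb of either end. A promoter inside a gene is missed by this rule, and a neighbour's promoter can be counted. Summit reads were taken as the whole number k for which (k + 1) over (background + 1) gives the fold and a Poisson tail gives the −log10 p. This held within 0.002 for 99.9% of H3K4me3 and 99.7% of p300 peaks and for all 27 and 2 peaks in the clusters, and the calculation was tested on simulated data. PCR copies can raise these values.

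All 38 genes are named. Of the other lists, the text names the genes with the highest folds at an end, up to 4, and all with p300 there where these are 4 or fewer. A gene that this rule would name is not reported here. Members, lists and rules were chosen with earlier results of these data known. No p-value was computed. Alternatives were the upper part of each list by fold or by −log10 q, summits, windows of 500 bp and 2 kb, starts alone and spans with 10 kb added. Scripts used Python 3.11.15, numpy 2.4.6, pandas 2.3.3, scipy 1.17.1 and matplotlib 3.10.9.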

Additional observations from a re-analysis of the deposited data

How the results depend on the processing

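Of 76 values recomputed under another setting, 45 stayed within 1.5 times the reported one. No paired analysis was possible because each antibody had 1 library. In the upper part of each list by fold, H3K4me3 was at an end of 5 Hox genes, with 0, 1 and 4 in paralogues 1 to 3, 4 to 8 and 9 to 13, and in or within 1 kb of 7. The clusters Hoxa, Hoxb and Hoxd then held 4, 3 and 2 peaks over 4.47%, 1.02% and 1.52% of their spans. p300 was then at or in 0 Hox genes and within 50 kb of 1, with 0 peaks in the spans and 0 overlaps with H3K4me3. In the upper part by −log10 q, H3K4me3 was at an end of 1 gene in paralogues 1 to 3 and 2 in 4 to 8, and in or within 1 kb of 8. Hoxb and Hoxd then held 5 and 2 peaks over 2.61% and 1.52%. p300 was then at or in 0 Hox genes and within 50 kb of 11, with 1 peak in the spans and 0 overlaps with H3K4me3 of that part. With starts alone at the 22 genes with a listed start, H3K4me3 was at 4, with 0 in paralogues 4 to 8 and 2 in 9 to 13. With the summit required, paralogues 1 to 3 had 1. With 10 kb added to each span there were 3 p300 peaks, and all 3 overlapped H3K4me3. These parts of the lists hold fewer peaks by construction, and a peak under the depth of either list would be missed.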
